A study of Mus musculus with 36 samples.

Results

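Neuronal differentiation genes are those that a neural progenitor switches on as it leaves the cell cycle and becomes a neuron. Their levels were followed here in whole male C57BL/6J mouse embryos at 9.5 days post coitum, after maternal intake of water, ethanol or nicotine. The set named 37 genes by symbol. Of these, 35 had a probe named on the Illumina expression array, Onecut1 had none, and the symbol Dll4l matched no mouse gene. A gene was represented by its probe with the highest mean over the 36 embryos, and was kept when that probe reached an intensity of 32 in at least 12 embryos. This left 23 genes, among 9682 named genes and 16927 probes of 45281 that passed the same minimum.

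Intensity is the fluorescence of a probe on a linear scale, as the authors deposited it. The mothers chose to drink 10% (v/v) ethanol (the Ethanol group) or freebase nicotine at 100 µg/ml (the Nicotine group) from 0.5 to 8.5 days post coitum, and water in the Control group. Each group held 12 embryos of the same strain, age and sex, with 1 array per embryo. Intake per mother is not given in the labels, nor are litters, somite numbers or arrays per slide, so p-values measure the spread between these embryos. The mothers were exposed, and embryos that share a mother would not be independent. The fits treat each embryo as independent, so p-values could be too small.

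At this age the first neurons of the mouse appear in the hindbrain, the ventral spinal cord and the cranial ganglia, while most of the neural tube still consists of dividing progenitors. Proneural factors such as the neurogenins commit a progenitor and induce further factors, among them NeuroD and Ebf proteins. The new neuron then turns on identity factors of the LIM-homeodomain and POU families, RNA-binding proteins of the Elavl family, and the tubulin-binding, neurofilament and growth cone proteins from which an axon is built. Several of these genes are also active outside neurons: Isl1 in progenitors of the second heart field, Lhx1 in the nephric duct, and Ebf genes in mesenchyme. In RNA of a whole embryo, fewer neurons and less RNA per neuron cannot be told apart.

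The members that lay farthest from Control relative to their error after nicotine, without replicate number in the fit, were Ebf3, Lhx1 and Dcx, and the promoters of these genes are shown to give the sequence context of genes whose differences had opposite signs. The sequences come from RefSeq (GRCm38.p6) and run from 250 bases before the start of the transcript to 50 after it, 5′ to 3′ on the strand of the gene. Capitals mark matches to CCCNNGGG, the palindrome bound by Ebf proteins, and to TAATTA, a core recognised by many homeodomain proteins. Matches to CAGATG, an E-box variant bound by neurogenins and NeuroD proteins, were searched as well, all on both strands. The Ebf3 promoter is at chr7:137314396-137314695 (minus strand), the Dcx promoter at chrX:143933170-143933469 (minus strand) and the Lhx1 promoter at chr11:84525485-84525784 (minus strand).
Ebf3: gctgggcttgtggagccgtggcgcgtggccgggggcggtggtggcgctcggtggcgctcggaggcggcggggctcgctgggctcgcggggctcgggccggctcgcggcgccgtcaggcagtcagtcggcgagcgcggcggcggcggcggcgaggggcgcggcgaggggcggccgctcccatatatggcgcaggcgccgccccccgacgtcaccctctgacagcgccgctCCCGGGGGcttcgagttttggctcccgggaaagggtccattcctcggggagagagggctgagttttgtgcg
Dcx: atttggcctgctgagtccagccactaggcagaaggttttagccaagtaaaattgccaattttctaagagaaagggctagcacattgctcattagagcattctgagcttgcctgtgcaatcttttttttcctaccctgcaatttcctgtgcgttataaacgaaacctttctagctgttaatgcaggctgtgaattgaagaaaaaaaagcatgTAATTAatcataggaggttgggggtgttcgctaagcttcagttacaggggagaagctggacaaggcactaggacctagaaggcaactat
Lhx1: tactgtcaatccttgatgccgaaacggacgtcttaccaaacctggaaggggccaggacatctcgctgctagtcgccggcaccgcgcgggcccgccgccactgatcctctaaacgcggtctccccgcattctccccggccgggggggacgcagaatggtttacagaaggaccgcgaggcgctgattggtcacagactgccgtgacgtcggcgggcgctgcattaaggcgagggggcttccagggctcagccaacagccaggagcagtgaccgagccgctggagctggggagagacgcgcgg
The Ebf3 window held 1 match to CCCNNGGG and the Dcx window 1 match to TAATTA, and none of the 3 motifs was found in the Lhx1 window. Of 32851 promoter windows of this length in the genome, 13.7% held CCCNNGGG, 5.29% held TAATTA and 17.2% held CAGATG. Among the 34 windows of the 27 members with an entry, 5, 5 and 7 held them. Windows of a gene can overlap and are not separate counts. The same TAATTA of Dcx lies at -39 in the window shown and at -134 in another. A match is a description of the letters and not a site of binding.

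The members that did not reach the minimum were spread over the steps of differentiation. In the proneural and neurogenic class, Neurog2 and Neurod4 were kept, whereas Neurog1, Neurod1, Nhlh1 and Nhlh2 reached 32 in 0 embryos. Of 13 identity factors with a probe, 9 were kept, and Isl2, Mnx1, Tlx3 and Prdm8 reached it in 0. The highest Isl2 intensity was 31.1. Tubb3, the neuronal beta-tubulin often used as a marker of young neurons, had 1 probe, which ran from 3.88 to 21.5, and Nefl, the light neurofilament, had 1 probe, with a highest value of 4.70. Elavl4 was just outside the minimum with 10 embryos, 6 of them Control, 3 Ethanol and 1 Nicotine. Stmn4, a stathmin, reached it in 4 embryos. Stmn3 was nearest inside, with 17 embryos, 7 Control, 5 Ethanol and 5 Nicotine. Dim probes do not show that a gene is silent, since a probe can hybridise poorly. They enter no count or median below except in the alternatives that change the filter. Dcx, which stabilises the microtubules of migrating young neurons, passed with 10 Control, 11 Ethanol and 3 Nicotine embryos at 32 or more.

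**Figure D1:**
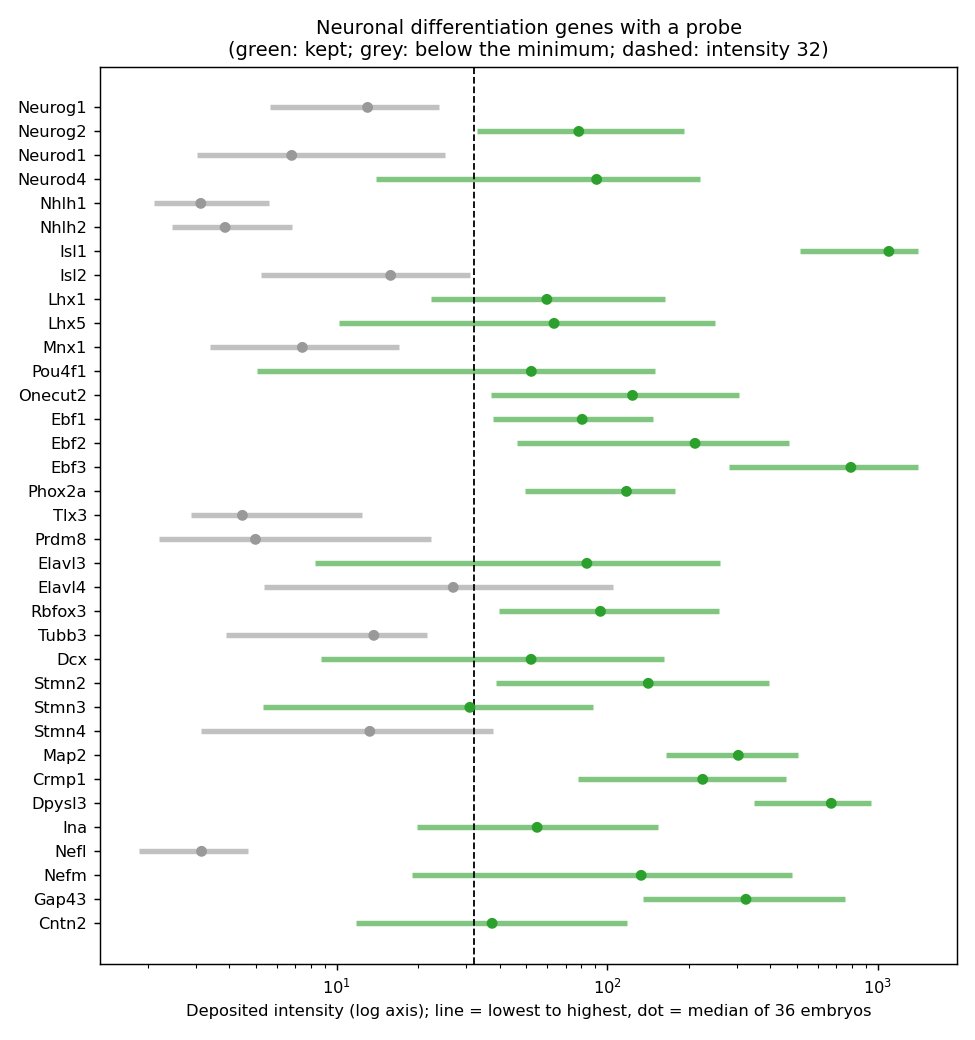
Deposited intensity (log axis) of the 35 members with a probe over all 36 embryos, each line running from the lowest to the highest embryo with a dot at the median. Green genes were kept, grey genes did not reach an intensity of 32 (dashed line) in 12 embryos, and lines of different genes are not comparable as amounts of RNA since they come from different probes.

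The kept members varied widely between embryos of 1 treatment. Values below are on the scale log2(intensity + 16), which understates the differences of dim probes. The standard deviation (SD) within groups had a median of 0.64 over the 23 members, against 0.29 over all 16927 probes, and all 23 lay above that median probe. Nefm, the medium neurofilament, had an SD of 1.22 in Control, where it ran from 19.0 in replicate 8 to 424 in replicate 5. Elavl3, an RNA-binding protein of new neurons, ran from 8.29 to 259.7 in the same 2 embryos. Isl1, an identity factor of motor and sensory neurons, was steadier, with a Control SD of 0.22 and a range of 877 to 1399.

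Within an embryo the members tended to be high or low together. Each embryo was set against the median Control embryo of the same replicate set (1 to 6 or 7 to 12, which lay apart on the first principal component with 48.1% of the variance). In Control 8, 22 of 23 members were below this median, among them Dcx at 8.76, Nefm at 19.0 and Stmn2, a tubulin-binding growth cone protein, at 38.7. Lhx1, at 104, was the only member above it. Control 5 was the opposite, with 1 member below and Dcx at 162, Nefm at 424 and Stmn2 at 298, and in Ethanol 4 there were 0 below. Nicotine 10 had 21 below, with Dcx at 15.4 and Nefm at 37.5. Over all probes the share below the same reference stayed between 45.3% and 55.9% in every embryo. The number of members below ran from 1 to 22 in Control (median 12), from 0 to 20 in Ethanol (median 17.5) and from 3 to 21 in Nicotine (median 17), so the groups overlapped almost fully. Control embryos helped to set the reference, which draws their median toward the middle.

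**Figure D2:**
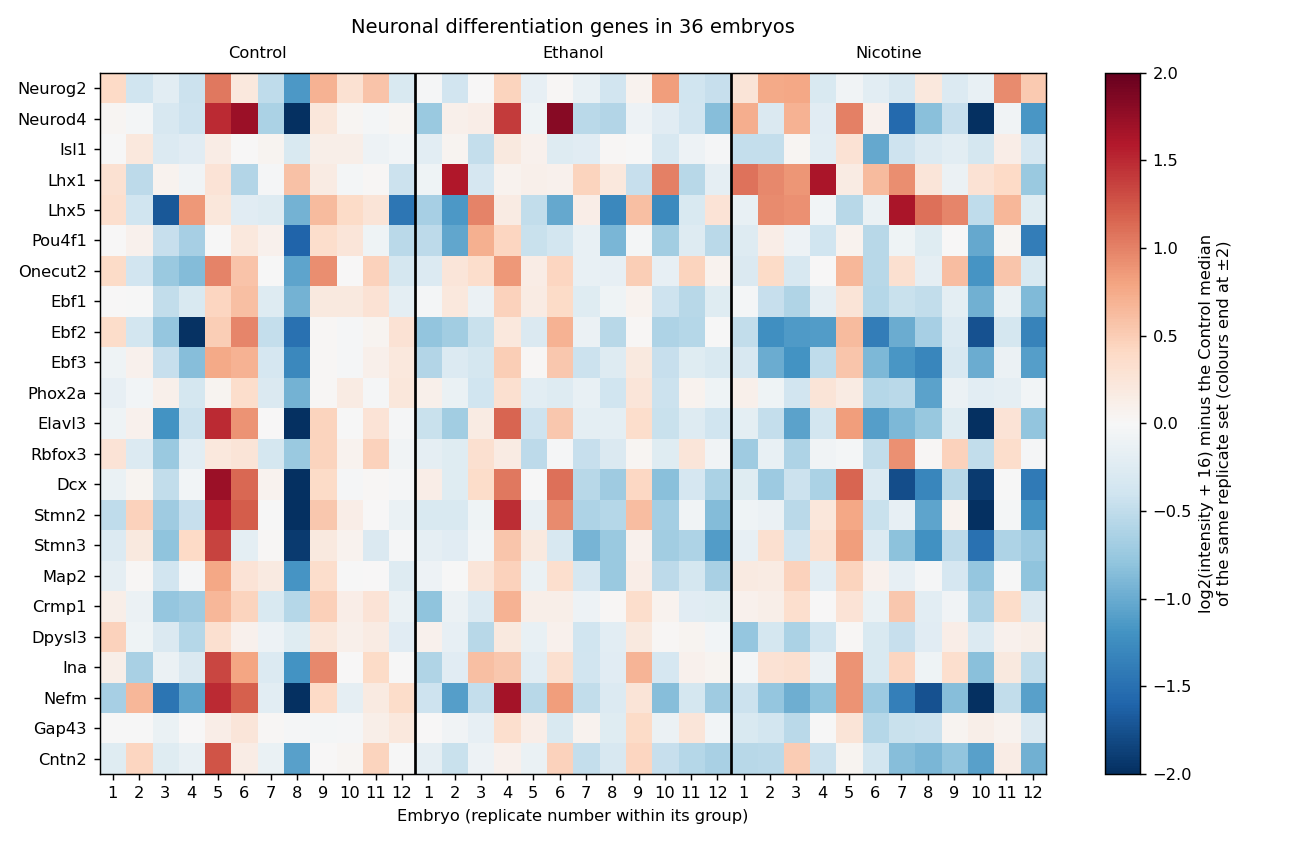
Each cell is log2(intensity + 16) of a member in an embryo minus the median of the Control embryos of the same replicate set, red above and blue below, with the colours ending at plus or minus 2. The columns of Control 5 and Ethanol 4 are mostly red and those of Control 8 and Nicotine 10 mostly blue, so that the spread within groups is as visible as any difference between them.

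One nicotine embryo stood apart in another tissue. The summed intensity of 7 heart muscle genes was 1009 in Nicotine 3, against 18111 in the next lowest nicotine embryo and 19168 in the lowest Control. In this embryo 14 of 23 members were below the Control reference, and the counts of members for nicotine against Control are given with and without it.

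The replicate sets also differed in these genes. Of the 23 members, 20 had a higher mean in replicates 7 to 12, with a median difference of 0.30, against 0.08 over all probes, of which 59.3% were higher. This is a description, since the sets were noticed in the data, and the labels do not say what the numbers stand for. Gap43, a growth cone protein, went the other way and differed most. In Control its 6 embryos numbered 1 to 6 lay between 539.9 and 704, and those numbered 7 to 12 between 185 and 224. Pou4f1, a factor of sensory neurons, was also lower in replicates 7 to 12 by 0.87, and Crmp1, a collapsin response mediator, was higher by 0.96. In the embryos numbered 6, the members differed from those of replicates 1 to 5 by a median of 0.12, against 0.03 over all probes. Of the members, 15 were higher and 8 lower, and the share of all probes that were higher was not counted.

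The comparison of ethanol with Control asked whether maternal ethanol early in pregnancy left a trace in the expression of these genes a day after it ended. The groups lay close together. No member differed past the threshold, an adjusted p of 0.05 (limma, Benjamini-Hochberg over 16927 probes): 0 of 23 were called, where 0% of all probes were. With replicate number as a block it was again 0 of 23 and 0%. At an unadjusted p under 0.05 there were 0 members, where 1.05% of probes were, and 4.63% with the block. The median difference was -0.04 over the members, with 17 below and 6 above Control. Over all probes it was 0.00, with 8307 below and 8620 above. The members vary together, and without replicate 5 their median was 0.03, so its sign rests on single replicates.

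Stmn3, a tubulin-binding protein of the stathmin family, had the smallest unadjusted p without the block (0.345), and Cntn2 with it (0.16). It ran from 5.32 through a median of 46.0 to 88.1 in Control, and from 13.8 through 29.2 to 80.6 after ethanol. The ranges overlapped, with the difference at -0.23 (SE 0.243, adjusted p = 1, limma), and it was lower in 8 of 12 pairs of equal number. Cntn2, an adhesion protein of early axons, ran from 18.2 through 56.3 to 118 in Control and from 14.0 through 43.3 to 117 after ethanol, a difference of -0.23 (SE 0.252), with 6 pairs higher and 6 lower. Of the identity factors, Lhx1, a LIM factor of spinal interneurons, stood at 0.18 (SE 0.214), Onecut2, a factor of early-born neurons, at 0.20 (SE 0.263) and Isl1 at -0.08 (SE 0.117). Map2, a microtubule protein of dendrites, stood at -0.10 (SE 0.147).

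The intervals show what differences the data leave room for. Without the block, the 95% interval of Dcx ran from -0.62 to 0.52 around -0.05. That of Nefm ran from -0.75 to 0.70 around -0.02, and that of Isl1 from -0.32 to 0.16. With the block they were narrower, from -0.52 to 0.42 for Dcx, from -0.69 to 0.65 for Nefm and from -0.28 to 0.12 for Isl1. A p that misses the threshold does not show that ethanol left these genes at the Control level.

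**Figure D3:**
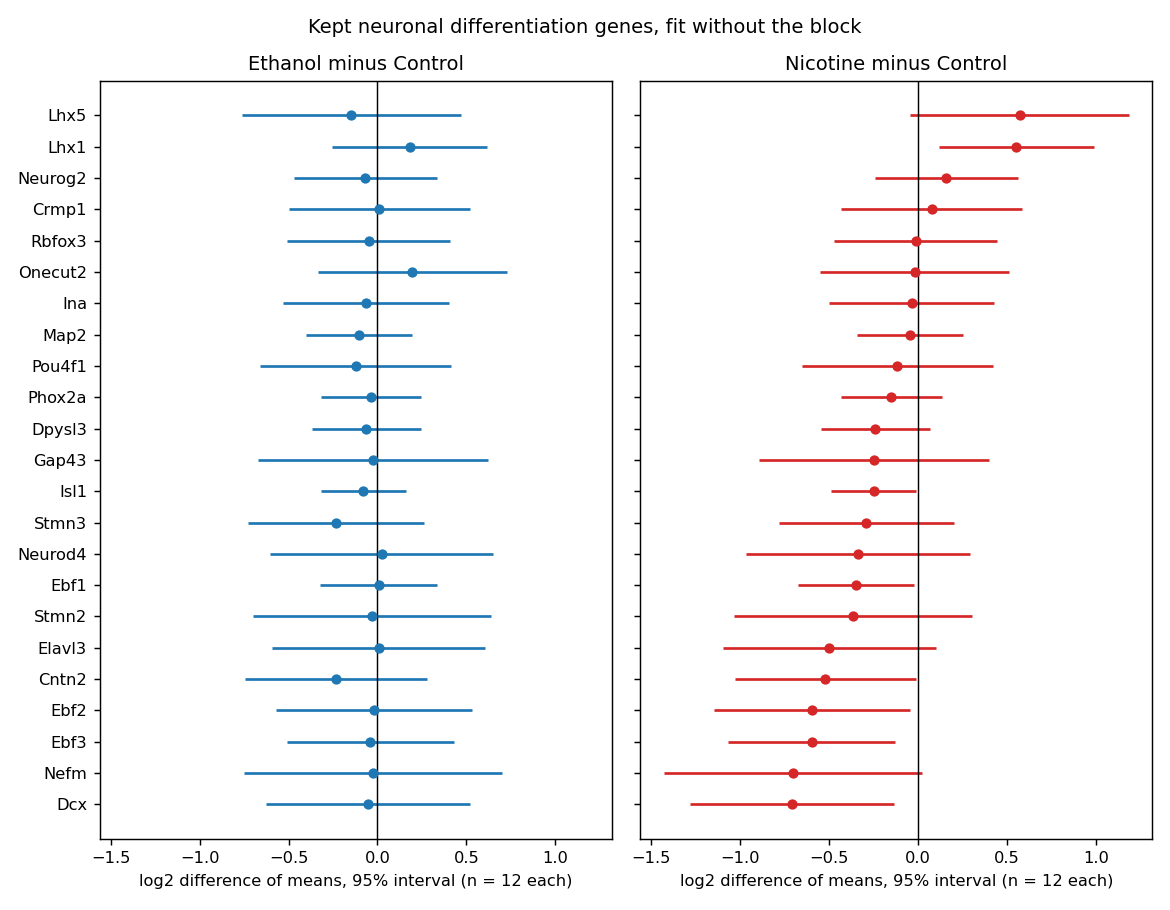
Log2 difference of group means from Control with its 95% interval for the 23 kept members, ethanol on the left and nicotine on the right, ordered by the nicotine difference (n = 12 embryos per group, fit without the block). Dcx, at -0.71, is lowest after nicotine and Lhx5, at 0.57, highest, while the ethanol differences lie between -0.23 and 0.20, and both panels share the Control embryos.

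The comparison of nicotine with Control asked the same of nicotine. Most members had a lower mean after nicotine, with Dcx, Nefm, Ebf2 and Ebf3 farthest below Control, whereas Lhx1 and Lhx5 had a higher mean, but no member passed the threshold. The count was 0 of 23 in limma, where 0.00591% of all probes passed. With replicate number as a block it was also 0 of 23, where 1.15% did. At an unadjusted p under 0.05 there were 7 of 23 members (30.4%), 6 lower and 1 higher, against 6.51% of probes, of which 3.25% were lower and 3.26% higher. With the block there were 10 of 23 (43.5%), 9 lower and 1 higher, against 17.7%, of which 8.72% were lower and 9% higher. The members vary together from embryo to embryo, so they do not count as separate observations. The median difference was -0.25, with 19 members below and 4 above Control, and 0.00 over all probes, of which 8224 were below and 8703 above.

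Without Nicotine 3 the median difference was -0.23, with 17 members below Control. The count past the threshold was 0 of 23 without the block in limma, where 0 probes passed. The unadjusted p was under 0.05 for 5 members, and Ebf1 (-0.30, p = 0.0747) and Ebf2 (-0.55, p = 0.0575) were no longer among them. With the block the count past the threshold was 1 of 23, where 153 probes passed, against 194 with that embryo. The 1 was Cntn2, the axonal adhesion protein (adjusted p = 0.0486 in limma, against 0.0952 with that embryo). Ebf3 had an adjusted p of 0.0856. The unadjusted p with the block was under 0.05 for 10 members. The share of all probes at that unadjusted p was not counted without this embryo. This setting was chosen after seeing the data.

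The Ebf genes encode helix-loop-helix factors that act after the proneural step and drive young neurons to migrate and mature. Ebf3 ran from 360.1 through a median of 1027 to 1410.2 in Control, from 439 through 921 to 1392 after ethanol and from 282 through 531 to 1121 after nicotine. The ranges overlapped, although 11 of 12 nicotine embryos lay below the Control median. Its mean lay 0.60 below Control on the log2 scale (difference -0.60, SE 0.232, 95% interval -1.07 to -0.13, adjusted p = 0.527, limma), lower in 11 of 12 pairs, and with the block the adjusted p was 0.0613. With the block it passed when replicate 4 (adjusted p = 0.0286) or replicate 5 (adjusted p = 0.0489) was left out. The other kept probe of Ebf3 stood at -0.57 (adjusted p = 0.431, and 0.0563 with the block).

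Ebf2 ran from 46.2 through 309 to 467 in Control and from 77.4 through 137 to 364 after nicotine. The nicotine median was thus less than that of Control, although the lowest embryo of all was a Control. The difference was -0.60 (SE 0.272, adjusted p = 0.709, limma), lower in 9 of 12 pairs, and its other probe stood at -0.47. Ebf1 ran from 42.1 through 95.3 to 148 in Control and from 37.9 through 60.3 to 106 after nicotine, a difference of -0.35 (SE 0.161, adjusted p = 0.722), lower in 10 of 12 pairs. Its other kept probe stood at -0.40, so both kept probes of each Ebf gene had the same sign. Within replicates 1 to 6 and 7 to 12 the differences were -0.58 and -0.62 for Ebf3, -0.57 and -0.62 for Ebf2, and -0.30 and -0.40 for Ebf1.

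Of the genes that build the young neuron, Dcx had the most negative difference. It ran from 8.76 through a median of 101 to 162 in Control, from 29.97 through 58.6 to 143 after ethanol, and from 15.4 through 28.8 to 106 after nicotine. Only 3 nicotine embryos reached 32, against 10 Control and 11 Ethanol embryos, so Dcx was kept mainly through those groups. Elavl4, with 6 Control, 3 Ethanol and 1 Nicotine embryo, was not kept. The rank of Dcx is therefore no separate support for a lower level after nicotine. The lowest Dcx embryo was Control 8. The Dcx difference was -0.71 (SE 0.282, 95% interval -1.28 to -0.14, adjusted p = 0.56, and 0.104 with the block, limma), lower in 10 of 12 pairs, with its other kept probe at -0.63. Nefm ran from 19.0 through 226 to 424 in Control and from 37.5 through 83.7 to 275 after nicotine. All nicotine embryos but 1 lay below the Control median, though Nefm was lower in 8 of 12 pairs and higher in 4, and the difference of -0.71 had an SE of 0.358 (adjusted p = 0.783). Differences of -0.47 and -0.69 were found with the other Nefm probes.

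Cntn2 ran from 11.8 through 32.7 to 92.7 after nicotine, against 18.2 through 56.3 to 118 in Control, a difference of -0.52 (SE 0.252, adjusted p = 0.755, and 0.0952 with the block), lower in 10 of 12 pairs. Gap43 ran from 135 through 303 to 712 after nicotine and from 185 through 382 to 704 in Control. Its SE fell from 0.32 to 0.074 when replicate number was in the fit, around the same difference of -0.25 (adjusted p = 1 without and 0.0832 with the block), with an SD of 0.81 within groups and 0.23 within the replicate sets of a group. Isl1 ran from 513 through 1011 to 1412 after nicotine and from 877 through 1187 to 1399 in Control, a difference of -0.25 (SE 0.117, adjusted p = 0.742), lower in 7 of 12 pairs. Without replicate 6 that difference was -0.18.

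Lhx1 and Lhx5, LIM-homeodomain factors of interneurons, had the highest differences. Lhx1 ran from 22.4 through a median of 54.5 to 104 in Control, from 29.5 through 45.8 to 158 after ethanol and from 31.8 through 84.9 to 163 after nicotine. The difference was 0.55 (SE 0.214, 95% interval 0.12 to 0.99, adjusted p = 0.527), higher in 8 of 12 pairs. It came mainly from replicates 1 to 6, at 0.98, against 0.12 in replicates 7 to 12. The test of that difference between the sets gave an unadjusted p of 0.0402 and an adjusted p of 0.698 (limma), where 0 of 23 members and 0% of probes passed the threshold. At an unadjusted p under 0.05 there was 1 member, Lhx1, against 6.94% of probes, and for the ethanol difference 0 members against 2.3%. Lhx5 ran from 10.2 through 69.9 to 139.6 in Control and from 41.6 through 92.7 to 248.7 after nicotine, a difference of 0.57 (SE 0.304, adjusted p = 0.822), at 0.31 and 0.83 in the replicate sets.

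**Figure D4:**
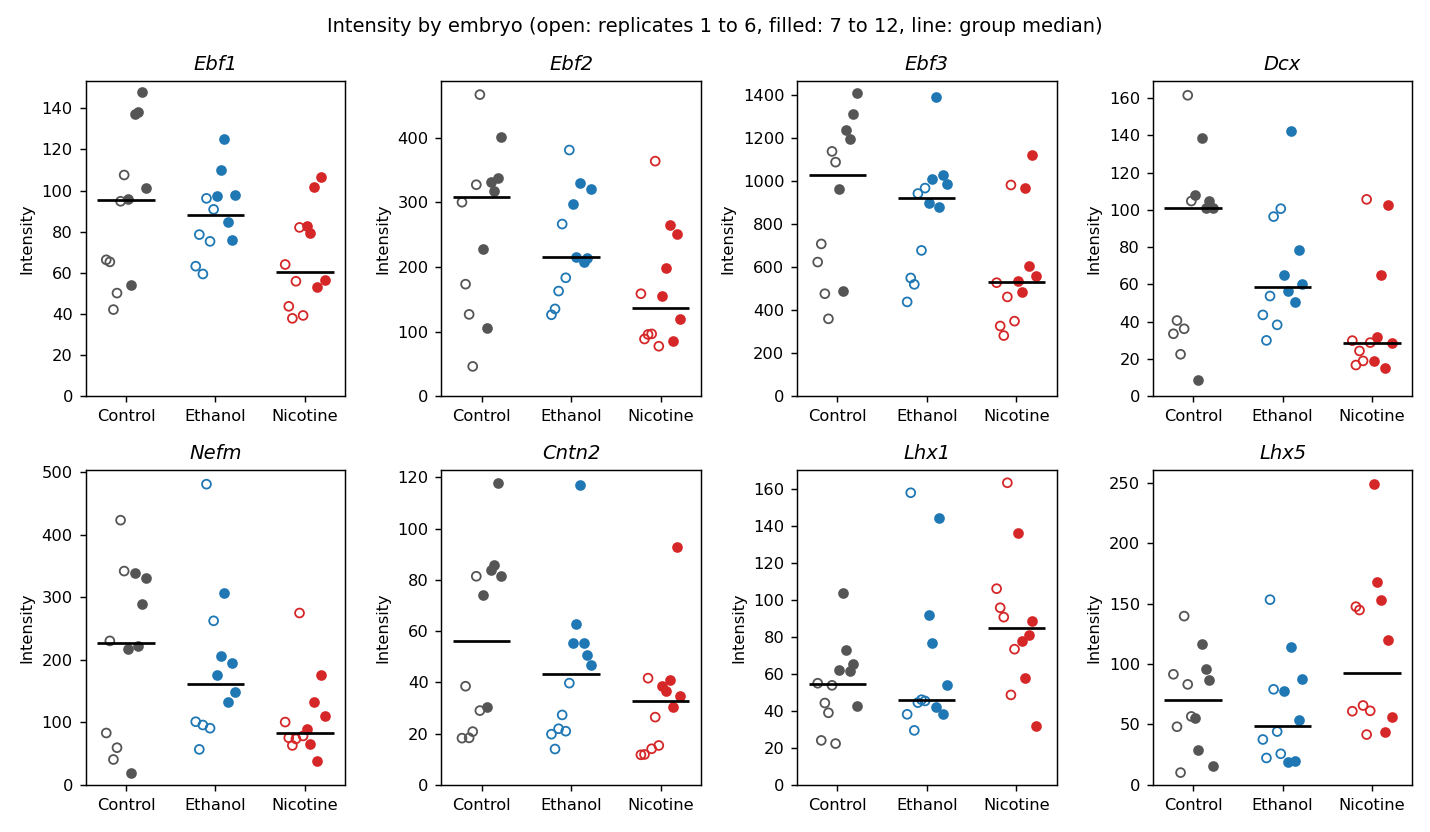
Deposited intensity of 8 members in each of the 36 embryos by group, open points for replicates 1 to 6 and filled points for 7 to 12, with a line at the group median. The nicotine median lies below that of Control for Ebf1, Ebf2, Ebf3, Dcx, Nefm and Cntn2 and above it for Lhx1 and Lhx5, and in each panel the groups overlap.

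After nicotine, none of the remaining members was among the 6 of smallest p in either fit. Neurog2, which commits spinal and sensory progenitors, stood at 0.16 after nicotine (SE 0.198), and Neurod4, which acts after it, at -0.34 (SE 0.309). Elavl3 stood at -0.50 (SE 0.296) and Rbfox3, the antigen NeuN of maturing neurons, at -0.01 (SE 0.226). The other kept probes of Elavl3 and Rbfox3 stood at -0.40 and -0.07. In replicates 1 to 6 and 7 to 12 the Rbfox3 difference was -0.26 and 0.24. Of the cytoskeletal genes, Stmn2 stood at -0.37, Stmn3 at -0.29, Dpysl3, a relative of Crmp1, at -0.24, Map2 at -0.05, Ina, the alpha-internexin filament, at -0.04 and Crmp1 at 0.08. Of the identity factors, Phox2a, of noradrenergic and cranial motor neurons, stood at -0.15, Pou4f1 at -0.12 and Onecut2 at -0.02, where its other kept probe stood at 0.15. By role, the medians were -0.09 for the 2 proneural genes, -0.15 for the 9 identity factors, -0.26 for the 2 RNA-binding genes and -0.25 for the 9 cytoskeletal and growth cone genes.

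Ethanol and nicotine embryos were compared directly, without Control. The count past the threshold was 0 of 23 members, where 0% of probes passed, and with the block 0 of 23, where 0.408% did. At an unadjusted p under 0.05 there were 5 of 23 against 4.93% of probes, and with the block 7 of 23 against 13.9%. Ebf3 was 0.56 higher in Ethanol than in Nicotine (SE 0.232, adjusted p = 0.862, and 0.119 with the block). Dcx was 0.66 higher (SE 0.282, adjusted p = 0.901) in 10 of 12 pairs, Ebf2 0.58, Ebf1 0.36, Nefm 0.68 and Gap43 0.22 higher, none of them past the threshold. Lhx5 was lower in Ethanol by 0.72 (SE 0.304, adjusted p = 0.883). With the block and without replicate 5, Ebf3 passed in this comparison too (adjusted p = 0.0467).

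Genes outside the set were counted from lists of neural and other tissues. Of 19 kept pan-neuronal genes, 11 were below and 8 above Control after nicotine with a median of -0.05, and 0 passed in either limma fit (unadjusted 3, or 5 with the block). Dpysl5, of the Crmp family, stood at 0.34 (SE 0.108) and Mapt, the axonal tau protein, at -0.45 (SE 0.164), lower in 12 of 12 pairs. The 12 kept progenitor genes had 6 on each side and a median of -0.01, with Sox3, a progenitor factor, at 0.30 and Nkx2-2, of the ventral neural tube, at -0.37. Of these 0 passed, and 0 had an unadjusted p under 0.05, or 1 with the block.

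Of 8 genes of the switch from progenitor to neuron 7 were below Control and 0 passed (unadjusted 2, or 4 with the block), with Insm1, a zinc finger factor of newborn neurons, at -0.59 (SE 0.252) and Dll1, the Notch ligand of new neurons, at 0.44 (SE 0.191). In the motor list 2 genes were kept and 0 passed (unadjusted 0, or 1 with the block), Slit2, an axon repellent, at -0.21 and Tbx20 at -0.15. In the sensory and sympathetic list 4 were kept and 0 passed (unadjusted 3 in either fit), with Ret, a receptor of neurotrophic ligands, at 0.45 (SE 0.153), higher in 11 of 12 pairs, and Ntrk2, the receptor of BDNF, at -0.27. Among 6 interneuron genes Evx1 passed with the block (1.18, adjusted p = 0.044), and it is also a gene of the tail bud. Dmrt3, of dorsal interneurons, stood at 0.59 (SE 0.239). After ethanol 0 genes of these lists passed in either fit.

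Markers of other tissues were counted in the same comparison. All 6 kept tail bud genes of 8 listed were above Control after nicotine, with a median of 0.998 (unadjusted 5 in either fit). Of these, 5 passed the threshold with the block (limma, adjusted p from 0.0273 to 0.0435) but not without it. They were Wnt3a, Tbx6, Nkx1-2, Cdx2 and Cdx4. The median deviation of the 6 genes was above the Control reference in 11 of 12 nicotine embryos, 6 of 12 ethanol embryos and 6 of 12 Control embryos. The summed intensity of the 6 ran from 791 through 1554 to 2986 in Control and from 1218 through 3235 to 5065 after nicotine. Of 5 kept crest genes 4 were below Control, and Tfap2b, at -0.48, passed the threshold with the block (adjusted p = 0.0264, limma) but not without it. All 7 endothelial genes were below Control with a median of -0.41, Esam at -0.45 and Robo4 at -0.62, and 0 passed (unadjusted 3, or 5 with the block). All 7 heart genes had lower means after nicotine, with a median of -0.25, and 0 passed (unadjusted 0 in either fit). This rested on Nicotine 3: without it 0 of 7 were below Control and the median was 0.07. The summed heart intensity had a median of 28933 after nicotine and 26178 in Control. The medians of the surface ectoderm, erythroid and yolk sac lists were 0.07, -0.04 and -0.02, with 0 passing (unadjusted 0 in either fit). Their part in the differences of the neuronal genes was not tested.

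**Figure D5:**
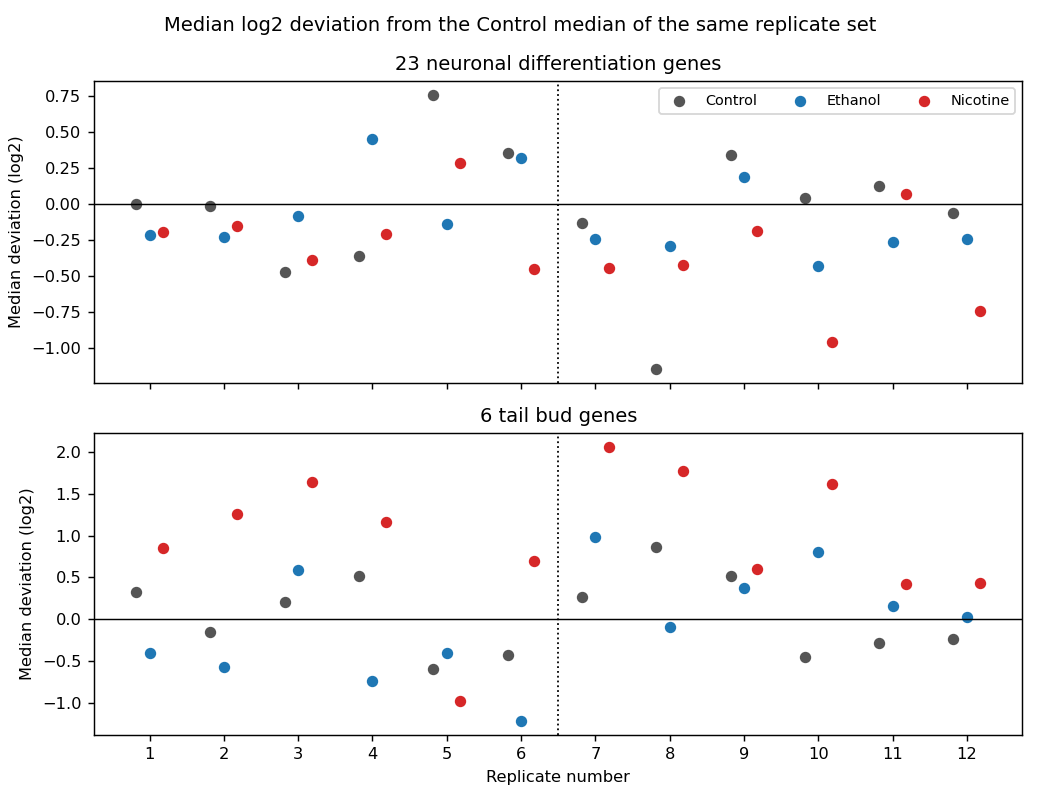
Median log2 deviation from the Control median of the same replicate set for each embryo, for the 23 neuronal differentiation genes (top) and 6 tail bud genes (bottom), by replicate number. The neuronal medians of the groups overlap, from -1.14 in Control 8 to 0.76 in Control 5, and 11 of 12 nicotine embryos lie above 0 for the tail bud genes.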

How the data were processed

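RNA of 36 embryos, 12 per group, was measured on an Illumina array. The values are intensity on a linear scale that the authors deposited, from GenomeStudio (1.9.0), according to the submitters' processing notes. How background was corrected and arrays normalized: not given in the sources used here. All arrays had nearly the same distribution (median 10.7 to 10.8, mean 357.7), so none was added. A second table was not used, because its 72 columns match no sample label. Probe symbols came from the platform annotation, updated through RefSeq: 34885 probes had 1 symbol, 18 several and 10378 none.

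Probes with intensity of 32 or more on at least 12 arrays were fitted as log2(intensity + 16) with limma 3.58.1 in R 4.3.3 (lmFit, eBayes, a mean per group, 33 residual degrees of freedom, two-sided). The fit without the block and the test between the replicate sets were tested on simulated data with independent noise per probe. The fit with the block was not simulated. The members, the lists and the replicate sets were chosen with earlier results of these data known. Members given in full were the 6 of smallest unadjusted p per comparison in the fits without and with the block, with Nefm and Lhx5 of the ethanol to nicotine comparison also described after nicotine; from other lists, the named genes passed the threshold or were the 2 with the lowest p after nicotine.

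Replicate numbers 1 to 12 recur in each group. After subtracting group means, all 36 pairs of equal number correlated above 0.1 (lowest 0.243, mean 0.589). Arrays of equal set but unequal number correlated at a mean of 0.474. The offset between the replicate sets was not subtracted, so passing 0.1 does not show pairing by number. The labels state no pairing, and the main fit had no block. Equal numbers were used as pairs only in the block and in the counts of pairs. The blocked fit had 22 residual degrees of freedom. Alternatives were the block, the pseudocount, the filter, cyclic loess, the probe choice and left-out replicates. The number of arrays limits the precision.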

Additional observations from a re-analysis of the deposited data

How the results depend on the processing

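No kept member passed the threshold in any fit without the block, whatever the pseudocount, filter, normalization, probe choice or left-out replicate or embryo. No member given in full changed sign under the alternatives run on it. With replicate number as a block the counts over all probes rose from 1 to 194 for nicotine against Control and from 0 to 69 for ethanol against nicotine, and stayed 0 for ethanol against Control; no member call changed. With the replicate sets as the block the nicotine count was 3, and it was 0 with no filter, with cyclic loess and with the mean of the probes of a gene. Leaving out each replicate number, the counts without the block ran from 0 to 1 for nicotine against Control and from 0 to 6 (without replicate 5) for ethanol against nicotine. With the block and without each of replicates 1 to 12 in that order, they were 194, 1, 131, 204, 231, 0, 0, 152, 256, 75, 147 and 146 for nicotine against Control, and 9, 0, 31, 3, 178, 0, 32, 0, 8, 41, 103 and 11 for ethanol against nicotine. The members past the threshold ran from 0 to 1 in both comparisons with nicotine, the 1 being Ebf3, with the block and without replicate 4 or 5. Without Nicotine 3 the members past the threshold were 0 without the block and 1, Cntn2, with it, where 0 and 153 probes passed. The cause was not tested. The median member difference for nicotine ran from -0.29 to -0.15, the last with no filter, where 35 members entered. For ethanol it ran from -0.14 without replicate 4 to 0.03 without replicate 5, so its sign rests on single replicates. With the block, no single embryo other than Nicotine 3 was left out. The alternatives without single embryos, and without replicates other than 6 with the block, were added after seeing the data.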
